A study of Mus musculus with 6 samples.

Results

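The Rab genes encode small GTPases that mark the membranes of the cell, and the amounts of their RNA were compared in splenic B cells of the marginal zone, the rim between the white and the red pulp. The members were all protein-coding genes of the deposited table whose symbol is Rab, a number and at most 1 letter. They came to 46 of the 14864 genes in the table, out of 59 such genes in the annotation. The other 13 (Rab3b, Rab3c, Rab9b, Rab15, Rab17, Rab27b, Rab33a, Rab34, Rab36, Rab38, Rab40b, Rab42 and Rab44) were not analysed here. The 3 cKO libraries came from mice in which CK2α, a catalytic subunit of the kinase, was conditionally knocked out, and the 3 WT libraries from wild-type mice. Both groups were C57BL/6 mice of 8 weeks, whose marginal zone B cells were taken from the spleen by flow sorting. Which Cre line drove the deletion, which exons it removed and how the sort was gated is not given in the sources used here. The labels leave unsaid whether each library stands for a separate mouse. The p-values therefore measure only how these libraries vary among themselves, and that spread may be technical.

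A Rab protein carries GTP when active and GDP when inactive. Exchange factors load it with GTP, and GTPase-activating proteins (GAPs) end the active state. A prenyl anchor holds the protein in its membrane, escort proteins bring it there, and GDP dissociation inhibitors (GDI) take it out again. In the active form it binds effectors such as tethers, motors and adaptors, and so directs the budding, transport and fusion of vesicles. In B cells these routes carry the antigen receptor and its antigen to the compartments where MHC class II is loaded, and secretory proteins to the surface.

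The targeted gene Csnk2a1 (ENSMUSG00000074698) had 4124, 3951 and 4060 normalised reads in cKO replicates 1 to 3, against 4069, 3861 and 3939 in WT replicates 1 to 3. The log2 difference, always cKO minus WT on log2(value + 1), was 0.03 ± 0.05 (standard error; adjusted p = 0.734 by limma; exact permutation p = 0.3, where 0.1 is the smallest that 3 against 3 allows). A count over a whole gene cannot resolve a deleted exon, and the directions below are those of the libraries as labelled. The libraries held 20054583 to 23503756 recovered reads in cKO and 18778776 to 21067977 in WT. The 5 B cell markers tested were all expressed, with a sum of 141867 to 149065 normalised reads in cKO and 136101 to 147063 in WT, so the sorted cells carried the defining B cell messages. Of 8 marginal zone markers 5 were called higher in cKO and none lower. Of 7 follicular B cell markers 4 were called lower and none higher. Over all genes tested, 5.08% were called higher and 4.97% lower. The follicular marker Cxcr5 went the other way without being called, with 8460 to 9693 in cKO and 6978 to 8445 in WT. Its log2 difference was 0.26 (adjusted p = 0.0547 by limma). The summed follicular markers were 31049, 39963 and 31291 in cKO replicates 1 to 3 and 40122, 44231 and 41195 in WT replicates 1 to 3. In bulk RNA, fewer cells of a type and less RNA per cell cannot be told apart.

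The Rab genes as a whole took up 0.22%, 0.232% and 0.227% of the reads in cKO replicates 1 to 3 and 0.222%, 0.224% and 0.226% in WT replicates 1 to 3. These shares overlapped between the groups. Levels of different genes were compared as normalised reads per kilobase (kb) of annotated exon, which allows for transcript length but not for which transcripts a cell uses. On that scale the mean over the 6 libraries ran from 5.1 to 1400 per kb across the 46 genes.

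**Figure D1:**
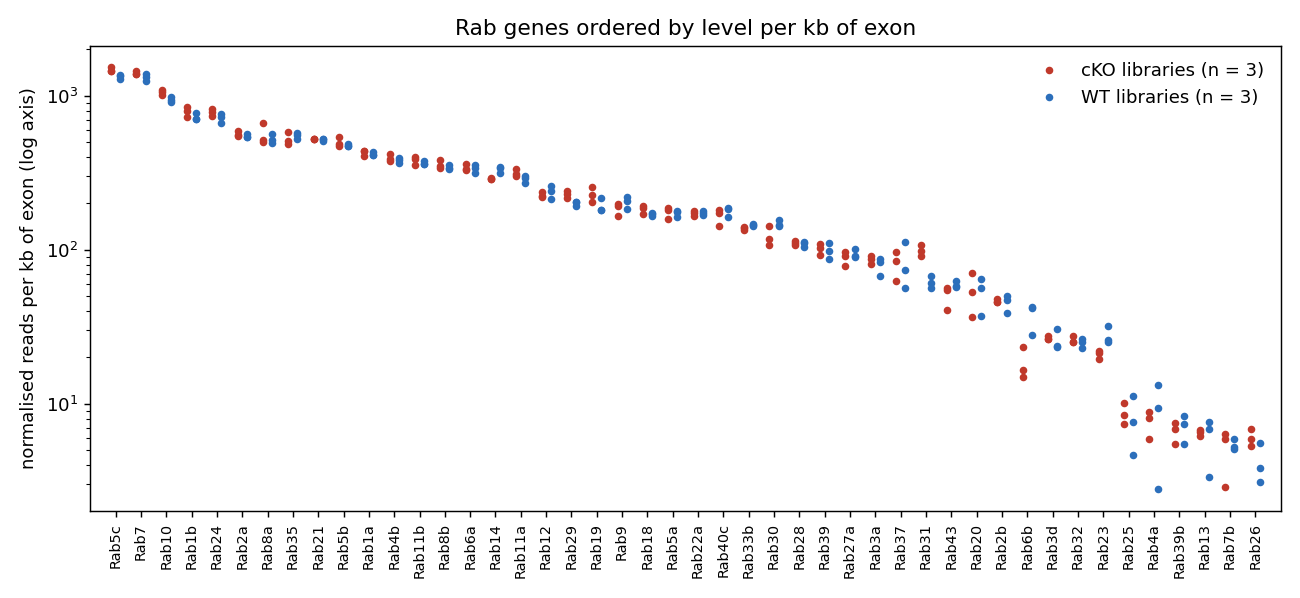
Normalised reads per kb of exon (log axis) for the 46 Rab genes, ordered by their mean, with a point for each of the 3 cKO libraries (red, left) and the 3 WT libraries (blue, right). Rab5c stands highest and Rab26 lowest. Among the abundant genes the points of the groups lie close together. Rab31 and Rab6b stand apart between the groups, and the points of low genes such as Rab4a scatter widely within a group.

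The 5 highest Rab genes were those of basic endosomal and secretory traffic. Rab5c, which drives fusion of early endosomes, had 1470 ± 53.6 per kb in cKO and 1330 ± 40.9 in WT (SD, n = 3 each). Rab7, which directs late endosomes to lysosomes, had 1410 ± 35.7 per kb in cKO and 1320 ± 70.6 in WT. Rab10, which acts in recycling and exocytosis, had 1050 ± 38.9 per kb in cKO and 941 ± 34.4 in WT. Rab1b, needed for transport from the endoplasmic reticulum (ER) to the Golgi, had 790 ± 53.6 per kb in cKO and 727 ± 36.2 in WT, and Rab24, linked to autophagy, 785 ± 39.6 in cKO and 724 ± 48.9 in WT. The level and rank of Rab24 are uncertain, because 49.6% of its exon stretches of 50 bases lie also in Prelid1, whose exons share 1258 bases with it on the opposite strand. For Rab7 the shared part was 12.7%. The 5 lowest were Rab26, Rab7b, Rab13, Rab39b and Rab4a, with cKO means of 5.07 to 7.62 per kb and WT means of 4.16 to 8.45. Rab26 acts at secretory granules of exocrine cells and Rab13 at epithelial junctions. These 5 genes had as few as 5 reads in a library, so that only large differences could be seen in them.

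Of the 46 Rab genes, 1 rose and 2 fell in cKO. That is 6.52% of the members, where 10.1% of all 14855 genes tested were called (5.08% higher and 4.97% lower). The median log2 difference of the members was 0.047, against -0.001 over all genes tested, and 32 of the 46 lay above 0. No overlap between the groups was seen for 11 members or 23.9%, against 31.6% of all genes tested. The 3 that passed were Rab31, Rab6b and Rab14, and the first of these alone was called with any of the 6 libraries left out. The number that fell was 0 without WT replicate 1, likewise without cKO replicate 3, and 1 without WT replicate 3. Without cKO replicate 1 it stayed at 2, but with Rab30 called in place of Rab14.

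**Figure D2:**
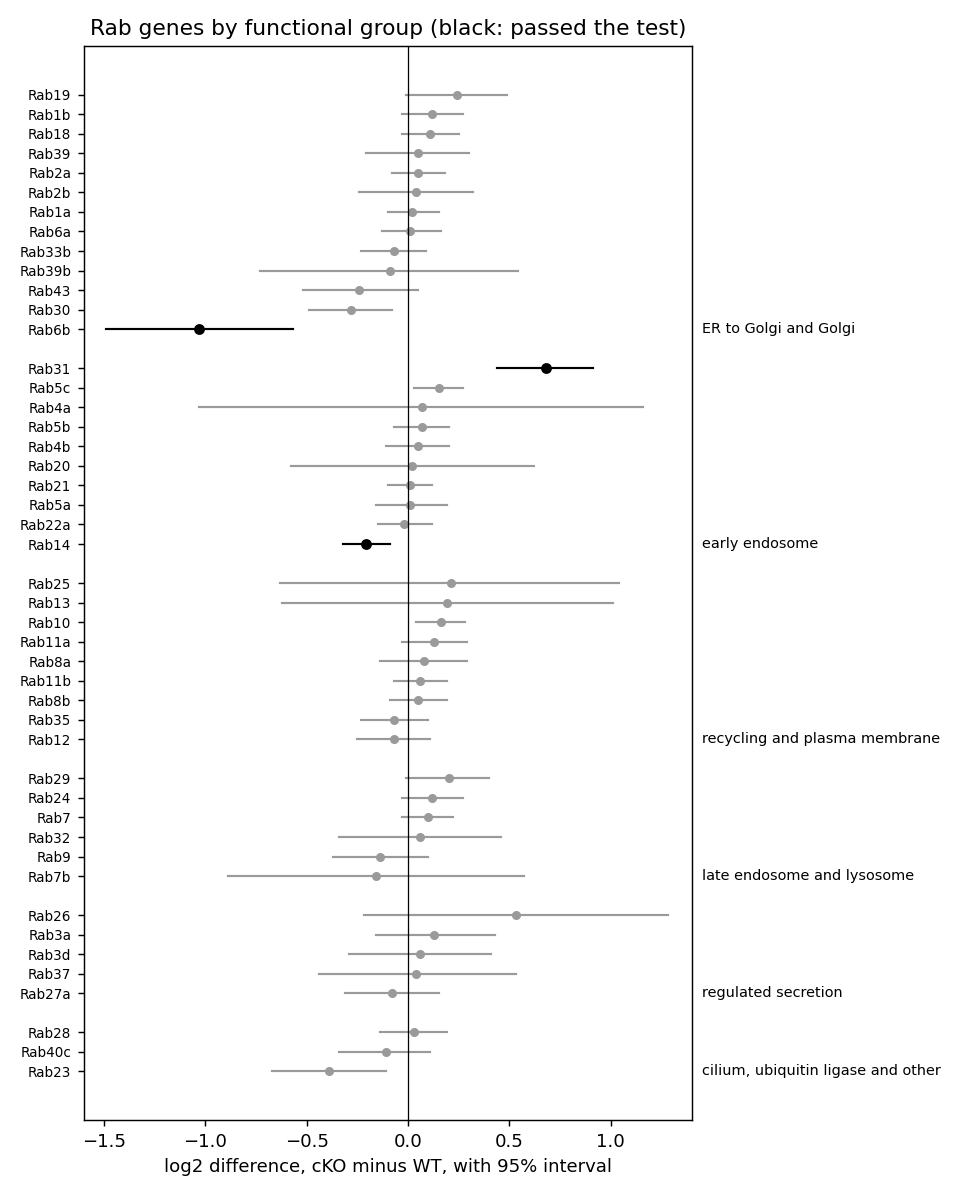
Log2 difference, cKO minus WT, of the 46 Rab genes with its 95% interval, grouped by the compartment each is best known for. Rab31 (0.68), Rab6b (-1.03) and Rab14 (-0.21) are drawn in black because they passed the test, and most other points lie close to 0.

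Since these 3 genes carry the called differences, the 250 bases before their annotated start are shown, as RefSeq gives them for GRCm38.p6, 5′ to 3′ along the gene. Capitals mark every match, on either strand, to any of 7 promoter motifs.
Rab31 (chr17:65772753-65773002, minus strand): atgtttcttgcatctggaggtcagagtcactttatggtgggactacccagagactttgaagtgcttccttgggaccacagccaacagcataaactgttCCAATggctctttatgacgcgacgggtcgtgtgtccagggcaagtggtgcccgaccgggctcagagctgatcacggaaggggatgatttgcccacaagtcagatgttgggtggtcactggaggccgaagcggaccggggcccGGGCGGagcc
Rab6b (chr9:103111824-103112073, plus strand): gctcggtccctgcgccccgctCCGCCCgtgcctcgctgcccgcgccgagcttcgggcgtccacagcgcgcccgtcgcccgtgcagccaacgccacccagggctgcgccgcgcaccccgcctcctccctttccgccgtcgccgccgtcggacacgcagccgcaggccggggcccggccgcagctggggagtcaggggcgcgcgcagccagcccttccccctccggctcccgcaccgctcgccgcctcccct
Rab14 (chr2:35201121-35201370, minus strand): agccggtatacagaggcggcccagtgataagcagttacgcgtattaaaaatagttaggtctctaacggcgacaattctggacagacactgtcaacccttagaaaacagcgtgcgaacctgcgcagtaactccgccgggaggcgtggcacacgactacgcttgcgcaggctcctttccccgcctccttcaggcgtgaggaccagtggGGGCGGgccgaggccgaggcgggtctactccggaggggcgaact
The motifs searched were the GC box GGGCGG, the CCAAT box CCAAT, the TATA box TATAAA, the E-box CACGTG, the RBPJ core TGGGAA, the AP-1 site TGANTCA and the ETS core CCGGAA. Each of the 3 windows held 1 GC box, that of Rab31 also 1 CCAAT box, and no 2 matches overlapped. A GC box stood in 32 of 47 windows of Rab genes (68.1%; 39 of the 46 genes had a window) and in 32.7% of all 32851 windows of this length. The median GC content was 62.0% in windows of Rab genes and 52.4% in all windows. The window of Rab6b was 80.8% G or C, that of Rab14 60.0% and that of Rab31 57.6%. For the other motifs the shares of windows were 44.7% of Rab genes and 33.8% of all for CCAAT, 4.26% and 12.4% for TATAAA, 10.6% and 6.02% for CACGTG, 25.5% and 21.6% for TGGGAA, 0.0% and 6.75% for TGANTCA, and 17.0% and 12.0% for CCGGAA. These are matches of letters in a window, and no binding was measured.

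Rab31 (ENSMUSG00000056515), also called Rab22b, moves cargo between the trans-Golgi network and endosomes. It had 377.1, 407.5 and 346.7 normalised reads in cKO replicates 1 to 3, against 216.3, 256.1 and 232.8 in WT replicates 1 to 3. Every cKO library lay above every WT library. Rab31 rose 1.6-fold, with a log2 difference of 0.68 ± 0.11 (95% interval 0.44 to 0.91; adjusted p = 0.00452). It was called in each of 14 alternatives, with adjusted p between 2.89e-05 and 0.0259. Its annotated transcripts share no stretch of 50 bases with any other gene, so its reads can be told from those of its relatives.

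Rab6b (ENSMUSG00000032549) is the form of the Golgi GTPase Rab6 that is best known from neurons, and it acts in transport back to the ER. It had 82.9, 118.5 and 75.33 normalised reads in cKO replicates 1 to 3, against 214.1, 210.8 and 141.8 in WT replicates 1 to 3. The groups did not overlap, but WT replicate 3 lay nearer to cKO replicate 2 than to the other WT libraries. Rab6b fell to 0.49 of its WT level, with a log2 difference of -1.03 ± 0.21 (95% interval -1.49 to -0.57; adjusted p = 0.015). Without WT replicate 1 the difference was -0.93 (adjusted p = 0.0738) and without cKO replicate 3 it was -0.90 (adjusted p = 0.0589), so the call was lost in both, in a range of 0.000133 to 0.0738 over 14 alternatives. Rab6b also shares no stretch of 50 bases with another gene.

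Rab14 (ENSMUSG00000026878) carries cargo between early endosomes and the Golgi. Of the 46 Rab genes it had the most recovered reads, 25412 over the 6 libraries, but it ranked 16 by level per kb of exon. It had 3908, 3919 and 3950 normalised reads in cKO replicates 1 to 3, against 4608, 4316 and 4669 in WT replicates 1 to 3. The cKO libraries lay within a narrow band below all WT libraries. Rab14 fell to 0.867 of its WT level (log2 difference -0.21 ± 0.05, 95% interval -0.32 to -0.09; adjusted p = 0.032). The call was lost without WT replicate 1 (adjusted p = 0.096), WT replicate 3 (0.125), cKO replicate 1 (0.073) or cKO replicate 3 (0.0965), in a range of 0.0179 to 0.125 over the alternatives.

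**Figure D3:**
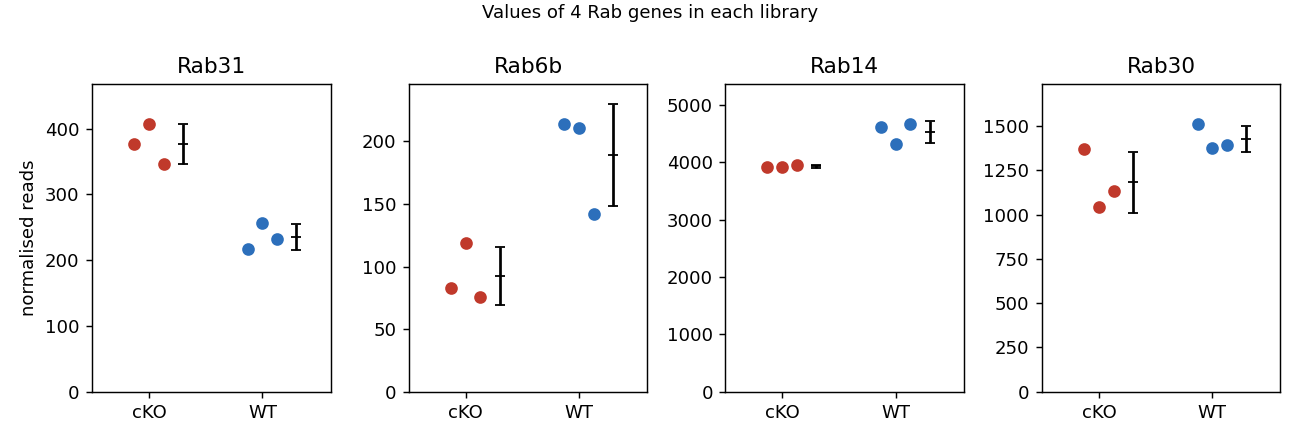
Normalised reads of Rab31, Rab6b, Rab14 and Rab30 in each of the 3 cKO libraries (red, left) and the 3 WT libraries (blue, right), with mean and SD in black. Rab31 lies at 346.7 to 407.5 in cKO and 216.3 to 256.1 in WT, whereas Rab30, which did not pass the test, has cKO replicate 1 at 1372 just under the lowest WT value of 1378.

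In cKO replicate 2, whose summed follicular markers of 39963 came nearest to WT, Rab31 and Rab6b both had their highest cKO value. Leaving that library out gave a log2 difference of 0.62 for Rab31, -1.22 for Rab6b and -0.20 for Rab14, and all 3 were called. The same fit also called more genes over the whole series, 1725 against 1494 with all 6 libraries. The summed markers of macrophages and monocytes were 1380 to 2208 in cKO and 1499 to 2321 in WT, and none of the 8 was called. Those of neutrophils (24 to 131 in cKO, 56 to 151 in WT, 3 of 6 markers tested) overlapped too. So did those of dendritic cells (300 to 409 in cKO, 311 to 355 in WT, 1 of 5 called). The called gene, Zbtb46, had 89.08 to 103.4 in cKO and 34.24 to 58.2 in WT, and the other 4 were not called. The sums of stroma (4301 to 5365 in cKO, 4396 to 5252 in WT, 3 of 6 tested, most of it Pecam1) overlapped as well. Red cell and platelet markers also overlapped (781 to 4835 in cKO, 683 to 10769 in WT, 5 of 6 tested). The plasma cell markers (5 of 6 tested) summed to 7390 to 8895 in cKO and 9243 to 13617 in WT, most of it Irf4. Irf4 was called lower in cKO (log2 difference -0.71, adjusted p = 0.0237 by limma), and the other 4 were not called. The T cell markers (3 of 8 tested) summed to 321 to 462 in cKO and 627 to 723 in WT, most of it Lck. Lck was called lower in cKO (log2 difference -0.79, adjusted p = 0.00534 by limma), and the other 2 were not called. Of these, Cd4 had 12.38 to 14.21 in cKO and 18.67 to 29.35 in WT. The T cell genes Cd3d, Cd3e, Cd3g, Thy1 and Trac were not tested. The part of these marker differences in the Rab results was not tested.

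Among the 13 Golgi and ER-to-Golgi members, Rab6b fell, none rose and 12 did not pass. The share called was 7.69%, against 10.1% of all genes tested. The partner of Rab6b, Rab6a, had 1233, 1242 and 1338 normalised reads in cKO replicates 1 to 3, against 1325, 1182 and 1269 in WT replicates 1 to 3. These values overlapped, with a 95% interval of -0.13 to 0.16 for the log2 difference. Per kb of exon, Rab6b made up 4.75%, 6.6% and 4.0% of the Rab6 pair in cKO replicates 1 to 3, against 10.7%, 11.7% and 7.65% in WT replicates 1 to 3, so Rab6a was the main form in every library. Of the exon stretches of Rab6a 19.0% lie also in another gene, chiefly Mrpl48 on the opposite strand, and without a stated strand setting their reads cannot be told apart.

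Rab30 (ENSMUSG00000030643), a Golgi protein, had 1372, 1043 and 1131 normalised reads in cKO replicates 1 to 3, against 1513, 1378 and 1395 in WT replicates 1 to 3. The groups were apart by a small margin, and the log2 difference of -0.28 ± 0.09 did not pass (adjusted p = 0.0797). With 1 library left out it passed in the fit without cKO replicate 1, at -0.39 (adjusted p = 0.0116, in a range of 0.0116 to 0.24 over the alternatives). Rab33b, which also acts in autophagy, gave -0.07 and Rab43 gave -0.24, again with no overlap between the groups and without passing (adjusted p = 0.583 and 0.259). For Rab43, 74.5% of the exon stretches are shared with the readthrough gene Gm45140, so its value is uncertain. Rab1a and Rab1b, Rab2a, and Rab18, which is found at the ER and on lipid droplets, had 95% intervals inside -0.10 to 0.27.

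Among the 10 early endosomal members, Rab31 rose, Rab14 fell and 8 did not pass, where 10.1% of all genes tested were called. Rab31 made up 36.5%, 39.3% and 33.6% of its pair with Rab22a per kb in cKO replicates 1 to 3, against 24.0%, 27.8% and 26.5% in WT replicates 1 to 3. Rab22a itself had 1242, 1191 and 1295 normalised reads in cKO replicates 1 to 3, against 1294, 1257 and 1219 in WT replicates 1 to 3, with a 95% interval of -0.15 to 0.12. The Rab5 forms, which share the early endosome, kept nearly the same proportions. Rab5c was 68.6% ± 0.816 of their sum per kb in cKO and 67.1% ± 1.07 in WT, Rab5b 23.3% ± 0.548 in cKO and 24.1% ± 0.727 in WT, and Rab5a 8.14% ± 0.59 in cKO and 8.76% ± 0.501 in WT (SD, n = 3 each).

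**Figure D4:**
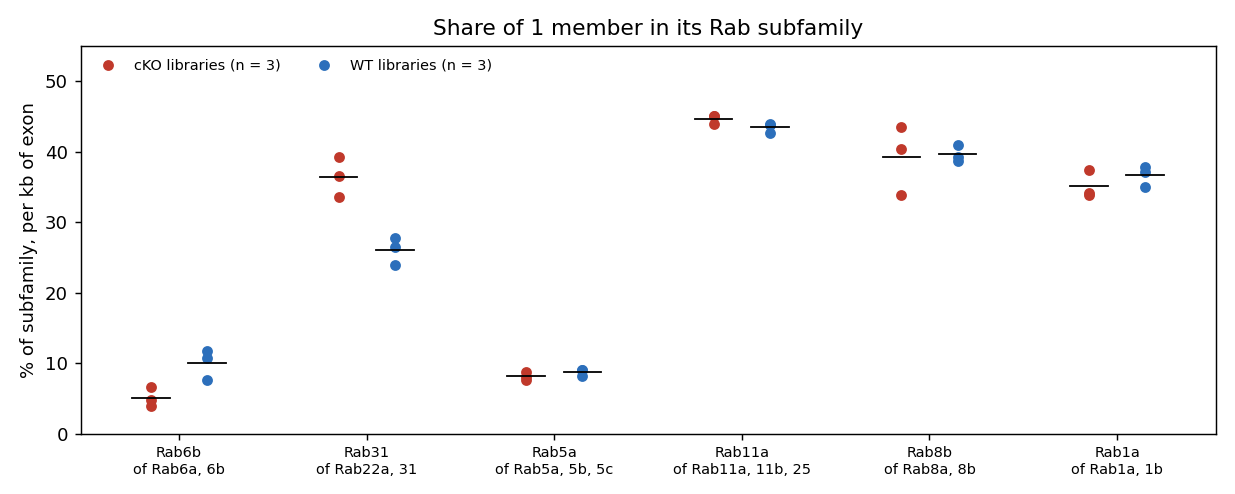
Share of 1 member in the summed level of its Rab subfamily, in percent of normalised reads per kb of exon, for each cKO library (red, left) and WT library (blue, right), with the group mean as a bar. Rab6b and Rab31 have no overlap between the groups, while Rab5a, Rab11a, Rab8b and Rab1a lie within about the same range in both.

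Rab5c had 3153, 3368 and 3177 normalised reads in cKO replicates 1 to 3, against 2814, 2989 and 2938 in WT replicates 1 to 3. The groups did not overlap, and the log2 difference of 0.15 ± 0.05 did not pass (adjusted p = 0.102). Rab21, which traffics integrins through early endosomes, was steady, with 2630 to 2650 in cKO and 2572 to 2646 in WT and a 95% interval of -0.10 to 0.12. Rab4a, of the fast recycling pathway, had 10.42 to 15.48 in cKO and 4.891 to 23.19 in WT, and its interval of -1.03 to 1.16 held a 2-fold change in both directions. Its relative Rab4b made up 98.1% ± 0.436 of the pair per kb in cKO and 97.9% ± 1.29 in WT, though 58.1% of its exon stretches are shared with other genes.

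None of the 9 members of recycling and the plasma membrane was called by limma, where 10.1% of all genes tested were. An unadjusted p under 0.05 was found for 3983 of the 14855 genes tested, for 7 of the 46 Rab genes and for 1 of these 9. This was Rab10, with 3810, 3736 and 3546 normalised reads in cKO replicates 1 to 3, against 3195, 3435 and 3286 in WT replicates 1 to 3. Each cKO value exceeded each WT value, and the log2 difference was 0.16 ± 0.05 (adjusted p = 0.0849, 0.0711 to 0.218 over the alternatives). Rab11a, the main GTPase of the recycling endosome, had 896.8 to 1004 in cKO and 813.6 to 896.0 in WT, groups that only just missed each other, at a log2 difference of 0.13 ± 0.07 (adjusted p = 0.26). Rab8a reached 3096 in cKO replicate 2, against 2402 and 2340 in the other cKO libraries and 2308 to 2646 in WT, so that library stood above the rest. Rab35, which acts in fast recycling from the surface, had 1367 to 1643 in cKO and 1470 to 1614 in WT. In edgeR and DESeq2 none of these 9 was called either.

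None of the 6 late endosomal and lysosomal members passed, and none had an unadjusted p under 0.05, against 3983 of the 14855 genes tested. Their log2 differences ran from -0.16 to 0.20. Rab7 had 3605, 3782 and 3643 normalised reads in cKO replicates 1 to 3, against 3254, 3621 and 3459 in WT replicates 1 to 3, which overlapped. Rab29, a partner of the kinase Lrrk2, had 317.3 to 353.5 in cKO and 283.3 to 299.3 in WT, with no overlap and an adjusted p of 0.203. Rab9, which returns receptors from late endosomes to the Golgi, had 290.6 to 345.9 in cKO and 320.6 to 384.7 in WT.

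Among the 5 members of regulated secretion none passed and none had an unadjusted p under 0.05, against the same 3983 of 14855 genes. The log2 differences of these 5 ran from -0.08 to 0.53. The highest was that of Rab26, with a 95% interval of -0.22 to 1.28 and as few as 9 reads in a library. Rab27a, which docks lytic granules and exosome-forming compartments at the membrane, had 306.7 to 374.3 normalised reads in cKO and 347.0 to 392.3 in WT. Rab37 varied widely between libraries of the same group, with 452.0, 335.5 and 519.0 in cKO replicates 1 to 3 and 394.2, 303.5 and 602.6 in WT replicates 1 to 3. The synaptic vesicle gene Rab3a had 181.6 to 203.2 in cKO and 149.7 to 195.5 in WT. Of the remaining 3, Rab23, a negative regulator of hedgehog signalling in the mouse, had 163.1, 181.9 and 177.5 in cKO replicates 1 to 3, against 214.1, 208.7 and 264.1 in WT replicates 1 to 3. Its groups did not overlap, but the log2 difference of -0.39 ± 0.13 did not pass (adjusted p = 0.0803).

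Over the 43 members that did not pass, the 95% interval lay within a 1.5-fold change either way for 35. It reached further for 8, of which 4 could not exclude a 2-fold change. The shared stretches of 50 bases exceeded 10% of the annotated sequence for 10 members (Rab43, Rab4b, Rab2b, Rab24, Rab20, Rab33b, Rab6a, Rab39b, Rab11b and Rab7), whose levels are uncertain to that extent, and were absent for 21. No member shared them chiefly with another of the 46, so close relatives such as Rab1a and Rab1b, or Rab8a and Rab8b, could be counted apart.

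Of 162 genes that load, switch off, anchor or answer to Rab proteins, 147 were tested. Among them 5 rose and 8 fell, or 8.84%, close to the 10.1% called over all genes tested, and their median log2 difference was -0.023, against -0.001 over all genes. Of 51 exchange factors 3 fell and none rose, which is 5.88% called, against the 10.1% of all genes. Dennd5b, of the DENN family of exchange factors, had 770.2, 1313 and 1059 normalised reads in cKO replicates 1 to 3, against 1914, 1805 and 1809 in WT replicates 1 to 3. Each cKO library was well below WT, and the log2 difference was -0.85 ± 0.15 (adjusted p = 0.00723, called in all 14 alternatives). Dennd6b gave -0.28 ± 0.06 (adjusted p = 0.0226) and Sbf1, a DENN protein of the myotubularin family, -0.19 ± 0.05 (adjusted p = 0.0399).

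Of 40 GAPs 1 rose and none fell, or 2.5%, against the same 10.1%. Tbc1d30 had 53.49, 43.59 and 44.37 normalised reads in cKO replicates 1 to 3, against 24.16, 16.86 and 16.63 in WT replicates 1 to 3, a log2 difference of 1.27 ± 0.26 (adjusted p = 0.0152). Of 8 genes of prenylation, escort and GDI 1 rose and none fell, or 12.5%, against 10.1%. This was Gdi2, which extracts inactive Rab proteins from membranes. It had 9418, 10075 and 9517 in cKO replicates 1 to 3, against 8039, 8677 and 8285 in WT replicates 1 to 3 (log2 difference 0.21 ± 0.05, adjusted p = 0.0334). The groups lay apart in both genes.

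Of 48 effectors 3 rose and 5 fell, or 16.7%, against 10.1% of all genes. Rilpl1, which binds Rab proteins phosphorylated by Lrrk2, had 141.7, 108.0 and 119.7 normalised reads in cKO replicates 1 to 3, against 59.3, 60.07 and 61.63 in WT replicates 1 to 3. The WT libraries were nearly equal and all cKO libraries stood far above them, at a log2 difference of 1.01 ± 0.17 (adjusted p = 0.00568, called in all 13 alternatives that include it). Bicd1, a dynein adaptor that binds Rab6 proteins, had 207.7, 219.8 and 269.3 in cKO replicates 1 to 3, against 165.8, 120.1 and 128.1 in WT replicates 1 to 3 (0.75 ± 0.16, adjusted p = 0.0161). Mical3, an actin-oxidising enzyme that binds Rab8, rose by 0.36 ± 0.09.

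The effectors that fell were mostly abundant messages with small changes. Myo5a, a myosin motor of vesicles, had 4153, 4378 and 4368 normalised reads in cKO replicates 1 to 3, against 5500, 4915 and 5112 in WT replicates 1 to 3 (log2 difference -0.27 ± 0.06, adjusted p = 0.0183). Fyco1 and Plekhm1, which both bind Rab7 at late endosomes and autophagosomes, gave -0.28 ± 0.06 and -0.22 ± 0.06 (adjusted p = 0.0204 and 0.032). Mical1 gave -0.21 ± 0.05 (adjusted p = 0.0309). Rab11fip5, a Rab11 partner, was low, with 46.35, 29.38 and 31.99 in cKO replicates 1 to 3, against 56.0, 65.34 and 98.8 in WT replicates 1 to 3 (-1.0 ± 0.27, adjusted p = 0.0407). Apart from Dennd5b and Rilpl1, each of these 13 genes lost its call when some library was left out, with a highest adjusted p between 0.0603 (Tbc1d30) and 0.153 (Rab11fip5). Leaving out WT replicate 3 or cKO replicate 3 brought the 5 that rose to 1, and leaving out cKO replicate 1 brought them to 3. The 8 that fell became 1 when WT replicate 1 or WT replicate 3 was left out, 4 when WT replicate 2 was, 3 when cKO replicate 1 was, 15 when cKO replicate 2 was and 2 when cKO replicate 3 was.

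**Figure D5:**
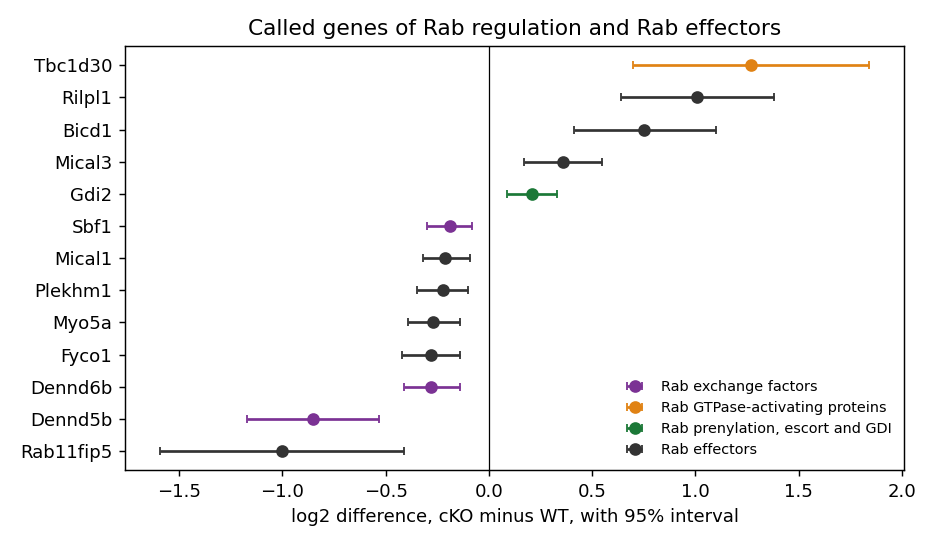
Log2 difference, cKO minus WT, with its 95% interval for the 13 called genes among exchange factors, GAPs, escort and GDI genes, and effectors of Rab proteins. Tbc1d30 (1.27) and Rilpl1 (1.01) stand highest, and Dennd5b (-0.85) and Rab11fip5 (-1.0) lowest.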

How the data were processed

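RNA of flow-sorted splenic marginal zone B cells was sequenced in 3 cKO and 3 WT libraries. Per the submitters' processing notes, bcl2fastq 2.17, Trimmomatic 0.36 and STAR 2.5.2b were used with the build mm9. How reads were counted, with which annotation and strand setting, and how they were normalized is not stated in the sources used here. The authors deposited a signal for each gene, namely read counts divided by a factor for each library: in every library 100% of the values were whole multiples of 1 read, within 0.02 of a read. In each library the value of 1 read came from the gaps between low values.

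Symbols and exon lengths came from GENCODE M21. The main test was limma 3.58.1 (R 4.3.3, eBayes with a trend) on log2(value + 1). It was two-sided, had no term besides genotype, and covered the 14855 genes with a mean of at least 10. P-values were adjusted by Benjamini-Hochberg over these genes, with a threshold of 0.05, and only genes past it are said to have risen or fallen. Alternatives were limma-voom with TMM, edgeR 4.0.16 and DESeq2 1.42.0 on the recovered reads, a pseudocount of 10, no filter, a minimum mean of 100, rescaling without immunoglobulin genes, the replicate number as a block, and leaving out each library. The members and lists were chosen with earlier results of these data known. Genes named with values are the called ones, those whose groups did not overlap, the 5 highest and 5 lowest per kb, and up to 8 called regulators or effectors in each direction. Other members stand as examples of their group and were chosen after their values were seen.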

Additional observations from a re-analysis of the deposited data

How the results depend on the processing

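Rab31 was called in all alternatives, as the 1 Rab gene that rose. The number of Rab genes that fell was 2 with the other tests, filters, scaling and pseudocount, and 0 to 2 with 1 library left out. It was 0 without WT replicate 1 or cKO replicate 3, and 1 without WT replicate 3. Without cKO replicate 1 it was 2, with Rab30 called in place of Rab14. The cause was not tested, though the fits with 1 library left out have fewer libraries. Over all genes the calls were 496 to 1725 in the same 6 fits, against 1494. Among regulators and effectors, the 5 that rose became 3 with a minimum mean of 100, which tests fewer genes. With 1 library left out they ranged from 1 to 7, and the 8 that fell from 1 to 15. Csnk2a1 was not called in any alternative. No result reversed.

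The deviations of same-numbered libraries from their group means correlated at -0.0745, -0.02 and 0.147 across genes. Libraries with different numbers gave -0.207 to 0.196, so same-numbered ones were no more alike. Whether libraries were prepared in pairs cannot be told from these values. With the replicate block 1551 genes were called, 1 Rab gene rose and 3 fell, Rab30 being added (adjusted p = 0.0335), and 6 regulators and effectors rose and 8 fell, Rab11fip5 being lost (adjusted p = 0.0579). Depth limits the 10 Rab genes with fewer than 100 reads in some library.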
